A study of Prunus avium with 6 samples.

Results

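Leaf of the sweet cherry (Prunus avium) cultivar ‘Lapins’ was compared with leaf of the cultivar ‘Rainier’, gene by gene, by the share of each library's reads that each gene held. The comparison used 2 of the 6 libraries of the series and, in them, the number of unique reads per gene, that is, reads that matched a single predicted gene. Of 43673 predicted coding sequences listed, 12627 had at least 1 unique read in either leaf and were compared, out of 16519 with a read anywhere in the series. ‘Lapins’ leaf was collected at Los Andes and ‘Rainier’ leaf at San Francisco de Mostazal, both in 2012. Leaf of ‘Bing’, from Quillota, and mature fruit of the same 3 cultivars made up the other 4 libraries. Total RNA of each sample was sequenced by pyrosequencing, 1 library for each cultivar and tissue. Neither the labels nor the methods say how many trees gave a sample. Each cultivar came from its own site, so cultivar and site cannot be told apart, and with 1 library a side there was no replicate check. The intervals and p-values of the paired libraries therefore cover counting error only.

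A cherry leaf is a source organ. Its chloroplasts capture light through chlorophyll-binding antenna proteins, the Calvin cycle fixes carbon, and the shikimate pathway turns part of that carbon into aromatic amino acids and phenolic compounds. Leaves also carry the hormone and defence signalling of the tree, in which jasmonate, made from membrane lipids in a route that begins in the chloroplast, triggers the loss of JAZ repressors of the TIFY family. Mitogen-activated protein kinases and WRKY transcription factors act in the response of leaves to wounding and pathogens.

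The libraries were close in depth. ‘Lapins’ leaf held 70058 unique reads in 10365 genes and ‘Rainier’ leaf 70196 unique reads in 10117 genes. Non-specific matches, which were left out, made up 2.28% of the mapped reads in ‘Lapins’ leaf and 2.11% in ‘Rainier’ leaf. A count of 0 still allows 3 reads, which corresponds to 0.428 reads per 10000 in ‘Lapins’ leaf and 0.427 per 10000 in ‘Rainier’ leaf. Most genes were read few times. In ‘Lapins’ leaf 3173 genes had a single read and in ‘Rainier’ leaf 3168. Reads were found in both leaves for 7855 genes, in ‘Lapins’ leaf alone for 2510 and in ‘Rainier’ leaf alone for 2262. Of the genes read in 1 leaf only, 61.4% of those in ‘Lapins’ leaf and 64.7% of those in ‘Rainier’ leaf had 1 read, and the highest counts were 15 and 13 reads. Being read in 1 leaf alone was thus mostly a matter of single reads.

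Genes that mark photosynthetic leaf tissue, 4 in number, were read at like shares in both leaves. An antenna protein that binds chlorophyll a and b, a subunit of the photosynthetic NDH complex, a geranylgeranyl diphosphate gene of the chloroplast and a gene described as ribulose-phosphate 3- chloroplastic summed to 146 reads in ‘Lapins’ leaf and 167 in ‘Rainier’ leaf. The ratio of the summed shares was 0.876 (exact 95% interval 0.697 to 1.1). In fruit the same 4 genes summed to 8 reads in ‘Lapins’ and 3 in ‘Rainier’. The list of 8 genes of reproductive and seed tissue had no read in ‘Lapins’ leaf and 1 in ‘Rainier’ leaf. It had few in fruit too, 2 in ‘Lapins’ and 7 in ‘Rainier’, so it could hardly tell tissues apart. Both leaf libraries thus carried the 4 leaf markers, which were chosen with earlier results of these data known. Not every chloroplast gene was higher in leaf. One described as malate chloroplastic had 7 and 6 reads in ‘Lapins’ and ‘Rainier’ leaf and 10 and 8 in their fruit. In leaf as a mixed tissue, fewer cells of a type and less RNA per cell cannot be told apart.

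A gene was called between the leaves by 3 criteria: at least 10 unique reads in at least 1 of the leaves, a ratio of shares of at least 2, and a p of at most 0.05 in the Z-test on proportions, without adjustment. The read minimum was met by 1966 genes, which held 66.6% of the reads of ‘Lapins’ leaf and 68.4% of those of ‘Rainier’ leaf. Of these, 222 were called higher in ‘Lapins’ leaf (11.3%) and 193 lower (9.82%), 21.1% in either direction. The shares of 68.2% of the 1966 genes lay within 2-fold of each other. The genes called higher held 7.34% of the reads of ‘Lapins’ leaf and 2.35% of those of ‘Rainier’ leaf. Those called lower held 2.58% of the reads of ‘Lapins’ leaf and 7.82% of those of ‘Rainier’ leaf. With p adjusted by the Benjamini-Hochberg method over the 12627 genes, 20 genes were called higher and 31 lower, 2.59% of the genes that met the minimum.

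**Figure D1:**
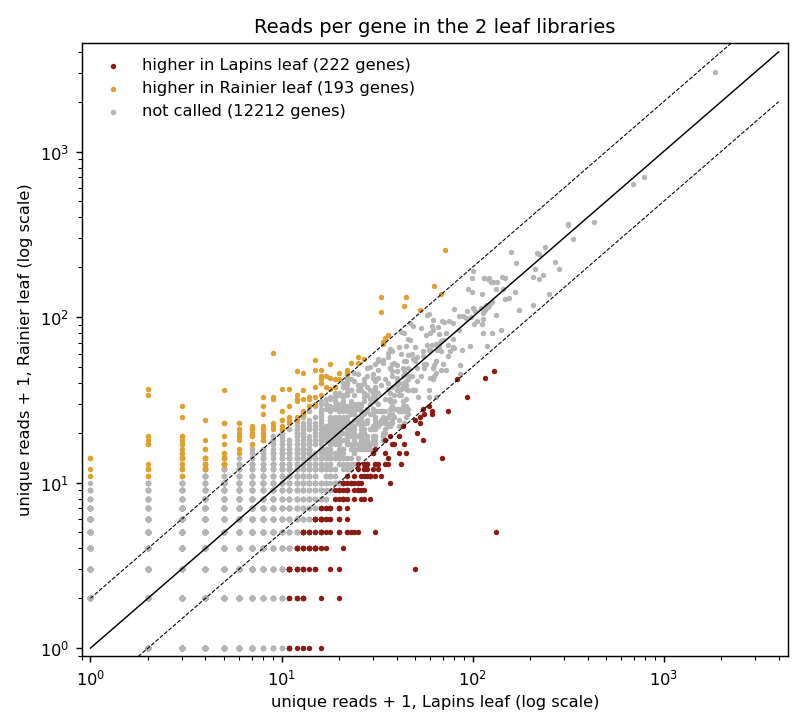
Unique reads plus 1 of each gene in ‘Lapins’ leaf (x axis, log scale) and ‘Rainier’ leaf (y axis, log scale), with the line of equal counts (solid) and of 2-fold difference (dashed). The 222 genes called higher and the 193 called lower in ‘Lapins’ leaf lie on either side of a band that holds most of the well-read genes, and most called genes have under 50 reads.

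Called differences were mostly between 2 and 4-fold and on few reads. A ratio of 2 to 4 was found for 141 of the genes called higher and 130 of those called lower, and a ratio of 4 or more, with reads in both leaves, for 72 and 59. A further 9 genes called higher had no read in ‘Rainier’ leaf and 4 called lower had none in ‘Lapins’ leaf. The larger of the 2 counts was 10 to 19 reads in 125 genes called higher and 96 called lower, and 50 or more in 16 and 19. At these depths a gene with 10 reads in ‘Lapins’ leaf was called only against 2 or fewer reads in ‘Rainier’ leaf, one with 20 reads against 9 or fewer, and one with 100 reads against 50 or fewer. Of the genes with 10 to 19 reads in the larger library 18.5% were called, of those with 20 to 49 reads 27.5%, and of those with 50 or more 18.3%. At 10 reads an observed ratio was thus called only well above 2-fold, and from 20 reads on close to it.

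The genes with the smallest p had no description in the rows of the annotation used here and are given by their identifiers. Pav_sc0006450.1_g010.1.br had 131 reads in ‘Lapins’ leaf and 4 in ‘Rainier’ leaf, with 1 in ‘Bing’ leaf and 0 in each of the 3 fruits. Its share was 32.8-fold higher in ‘Lapins’ leaf (12.5 to 122), with a Fisher's exact p of 2.71e-34 and an adjusted Z-test p of 4.33e-24. It was thus high in a single library of the 6. Pav_sc0000058.1_g160.1.mk had 49 reads in ‘Lapins’ leaf and 2 in ‘Rainier’ leaf, with none in ‘Bing’ leaf or in any fruit, a ratio of 24.5 (6.44 to 208, Fisher's exact p = 5.82e-13). It was read in these leaves only.

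On the other side, Pav_sc0000095.1_g790.1.mk had 71 reads in ‘Lapins’ leaf and 252 in ‘Rainier’ leaf, 3.54-fold lower in ‘Lapins’ leaf (2.71 to 4.68, Fisher's exact p = 5.96e-25). ‘Bing’ leaf, with 53 reads of a deeper library, held a lower share than either, and the fruits held 4, 1 and 2 reads in ‘Lapins’, ‘Rainier’ and ‘Bing’. Pav_sc0000205.1_g430.1.mk had 32 reads in ‘Lapins’ leaf and 132 in ‘Rainier’ leaf, 4.12-fold lower (2.78 to 6.26, Fisher's exact p = 1.22e-15). Here ‘Bing’ leaf had 78 reads, between the other leaves, and no fruit had over 3. The gene listed just before it on the same scaffold was also called lower, with 14 reads in ‘Lapins’ leaf and 54 in ‘Rainier’ leaf.

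The most read gene of both leaves, Pav_sc0001488.1_g320.1.mk, singled out after its values were seen, had 1865 reads in ‘Lapins’ leaf and 3016 in ‘Rainier’ leaf. It took 2.66% of the reads of ‘Lapins’ leaf and 4.3% of those of ‘Rainier’ leaf, a ratio of 0.62 (0.585 to 0.657), and was not called because the difference was under 2-fold. ‘Bing’ leaf had 1742 reads and the fruits 2 or 3 each, so it was a leaf transcript in all 3 cultivars. Per kilobase of coding sequence its level was 482 reads per 10000 in ‘Lapins’ leaf and 778 in ‘Rainier’ leaf, against 8.92 and 10.2 for the antenna gene that is described as chlorophyll a-b binding.

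Descriptions were held for a small part of the genes: 428 had an informative one, 201 of them had a read in either leaf and 38 met the minimum of 10 reads. Of these 38, 4 were called higher in ‘Lapins’ leaf and 3 lower, beside 11.3% and 9.82% over all genes that met the minimum. The genes called higher encode a mitogen-activated kinase, a pair of cytochromes P450 and a cell wall enzyme. Those called lower encode an enzyme of aromatic amino acid synthesis, a WRKY transcription factor and a subunit of the mRNA deadenylation complex. None of the 7 had a non-specific read in either leaf. At an adjusted p of at most 0.05 only chorismate mutase 2 was called.

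Mitogen-activated kinase 4-like (Pav_sc0000886.1_g560.1.mk), of a family whose member MPK4 acts in defence signalling in Arabidopsis, had 10 reads in ‘Lapins’ leaf and 1 in ‘Rainier’ leaf. Its ratio was 10 with an interval of 1.43 to 435 (Z-test p = 0.00659, Fisher's exact p = 0.0063, adjusted Z-test p = 0.345). ‘Bing’ leaf had 3 reads, and the fruits 6, 0 and 3 in ‘Lapins’, ‘Rainier’ and ‘Bing’. ‘Rainier’ was thus the lowest of the 3 cultivars in both tissues, on counts of 1 and 0.

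Of 8 genes described as cytochrome P450 CYP82D47-like, monooxygenases of a plant family that oxidises specialised metabolites, 2 were called higher and the other 6 had 0 or 1 read in each leaf. Pav_sc0000890.1_g1120.1.mk had 14 reads in ‘Lapins’ leaf and 3 in ‘Rainier’ leaf, a ratio of 4.68 (1.31 to 25.4, Fisher's exact p = 0.00748). ‘Bing’ leaf had none. Pav_sc0000890.1_g1250.1.mk had 10 reads in ‘Lapins’ leaf and 2 in ‘Rainier’ leaf, a ratio of 5.01 (1.07 to 47.0, Fisher's exact p = 0.0223), with 2 in ‘Bing’ leaf. ‘Lapins’ leaf was thus the highest of the 3 leaves for both, and neither call held with adjusted p (0.358 and 0.51, Z-test with Benjamini-Hochberg adjustment). The second gene was read far more in fruit, with 52 reads in ‘Lapins’, 44 in ‘Rainier’ and 128 in ‘Bing’, and its ratio between ‘Lapins’ and ‘Rainier’ fruit was 1.33 (0.876 to 2.04).

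Probable xyloglucan endotransglucosylase hydrolase 28 (Pav_sc0000893.1_g780.1.mk), which cuts and rejoins the xyloglucan chains that tether cellulose, had 15 reads in ‘Lapins’ leaf and 6 in ‘Rainier’ leaf. Its ratio of 2.5 had an interval that includes 1 (0.918 to 7.88), and the call rested on a Z-test p of 0.049. With Fisher's exact test (p = 0.0522) or with TMM library sizes (ratio 2.39, Z-test p = 0.063) it was not called. ‘Bing’ leaf had 8 reads, and the 3 fruits 35, 36 and 55 in ‘Lapins’, ‘Rainier’ and ‘Bing’.

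Chorismate mutase 2 (Pav_sc0000890.1_g420.1.mk), which commits chorismate to phenylalanine and tyrosine, had 9 reads in ‘Lapins’ leaf and 36 in ‘Rainier’ leaf. It was 3.99-fold lower in ‘Lapins’ leaf (1.89 to 9.42, Fisher's exact p = 6.56e-05, adjusted Z-test p = 0.0194). ‘Bing’ leaf had 28 reads, a share between the other leaves. In fruit it had 59 reads in ‘Lapins’ and 75 in ‘Rainier’, a ratio of 0.888 (0.62 to 1.27). The ratios in leaf and fruit differed by a Poisson likelihood ratio test (adjusted p = 0.0442, counting error only).

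Probable WRKY transcription factor 40 (Pav_sc0000890.1_g500.1.mk), known in Arabidopsis from pathogen and abscisic acid responses, had 10 reads in ‘Lapins’ leaf and 24 in ‘Rainier’ leaf. It was 2.4-fold lower in ‘Lapins’ leaf (1.1 to 5.61, Fisher's exact p = 0.0243), and ‘Bing’ leaf, with 57 reads, was the highest of the 3. Probable CCR4-associated factor 1 homolog 7 (Pav_sc0000890.1_g590.1.mk), a deadenylase that shortens the poly(A) tail of mRNAs, had 3 reads in ‘Lapins’ leaf and 12 in ‘Rainier’ leaf. It was 3.99-fold lower in ‘Lapins’ leaf (1.08 to 22, Fisher's exact p = 0.0351), with 7 reads in ‘Bing’ leaf. In fruit the WRKY40 gene had 16 reads in ‘Lapins’ and 24 in ‘Rainier’ and the deadenylase gene 6 and 5, and neither was called there.

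**Figure D2:**
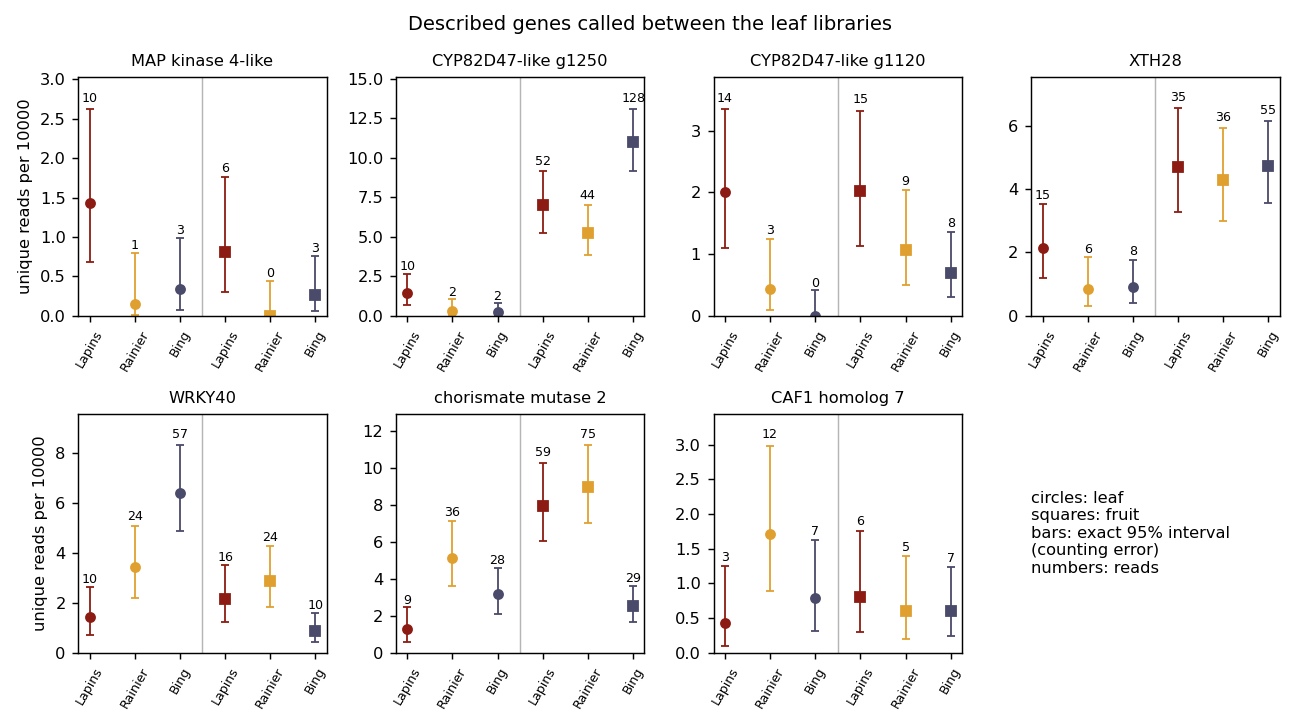
Unique reads per 10000 (y axis) of the 7 described genes called between ‘Lapins’ and ‘Rainier’ leaf, in the 3 leaves (circles) and 3 fruits (squares), with exact 95% intervals for counting error and the reads printed above. In the top row ‘Lapins’ leaf is the highest leaf, at 10 to 15 reads, and in the bottom row the lowest, at 3 to 10 reads.

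The described genes were also grouped into lists by function, and each list is given by its counts and its median log2 ratio of ‘Lapins’ over ‘Rainier’ leaf. The median was taken over members with at least 10 reads summed over both leaves, and over all 3197 such genes of the files it was 0.00. Of these 3197 genes 1539 had more reads in ‘Lapins’ leaf, 1427 fewer and 231 equal numbers. A list of few read members has a median of little weight, and its number of members is given each time.

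Of 24 photosynthesis and chloroplast genes 16 had reads, 8 met the minimum and none was called, beside 21.1% over all genes that met the minimum. With 8 genes this count alone is no result about the list. The antenna gene Pav_sc0000877.1_g910.1.mk, described as chlorophyll a-b binding, had 48 reads in ‘Lapins’ leaf and 55 in ‘Rainier’ leaf, a ratio of 0.874 (0.581 to 1.31). The ribulose-phosphate gene (Pav_sc0000877.1_g1130.1.mk) had 49 and 53, the geranylgeranyl diphosphate gene (Pav_sc0000877.1_g840.1.mk) 39 and 50, and the NDH subunit (Pav_sc0000877.1_g940.1.mk) 10 and 9 in the same order. A chloroplast glutathione peroxidase (Pav_sc0000890.1_g240.1.mk), which detoxifies lipid peroxides, had 21 and 16. The member with the largest log2 ratio in the median, a nucleoid-associated gene below the minimum, had 8 reads in ‘Lapins’ leaf and 2 in ‘Rainier’ leaf. The list summed to 235 reads in ‘Lapins’ leaf and 246 in ‘Rainier’ leaf, a ratio of 0.957 (0.797 to 1.15), with a median log2 ratio of 0.17 over 11 members. Its summed share thus differed by less than counting error, within an interval narrower than that of any other list.

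Of 35 jasmonate, defence and stress genes 19 had reads and 5 met the minimum. Of these 5, MAP kinase 4-like was called higher and WRKY40 lower, 1 each way beside 11.3% and 9.82% over all genes that met the minimum, and neither call held with adjusted p (0.345 and 0.477, Z-test with Benjamini-Hochberg adjustment). Their reads summed to 114 in ‘Lapins’ leaf and 111 in ‘Rainier’ leaf, a ratio of 1.03 (0.785 to 1.35), and the median log2 ratio was 0.12 over 6 members. TIFY 6B-like (Pav_sc0000893.1_g130.1.mk), of the family of jasmonate repressors, had 22 reads in each leaf. SNAP33-like (Pav_sc0000877.1_g1610.1.mk), a membrane fusion protein of the secretory pathway, had 26 reads in ‘Lapins’ leaf and 22 in ‘Rainier’ leaf.

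Allene oxide synthase (Pav_sc0000890.1_g1300.1.mk), which catalyses the first committed step of jasmonate synthesis, had 11 reads in ‘Lapins’ leaf and 21 in ‘Rainier’ leaf, a ratio of 0.525 (0.229 to 1.14) that was not called. In fruit it had 21 reads in ‘Lapins’ and 8 in ‘Rainier’, a ratio of 2.96 (1.26 to 7.74). The ratios in leaf and fruit lay on opposite sides of 1 and differed by the likelihood ratio test (adjusted p = 0.0487, counting error only). ‘Bing’ had 38 reads in leaf and 17 in fruit.

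Cell wall genes numbered 19, of which 9 had reads and 3 met the minimum. Of these 3, 1, xyloglucan endotransglucosylase hydrolase 28, was called higher, beside 11.3% over all genes that met the minimum. Its call was not kept with Fisher's exact test, TMM library sizes or adjusted p, and 3 genes are too few to read a share from. CESA3 (Pav_sc0000882.1_g140.1.mk), a catalytic subunit of the complex that makes primary wall cellulose, had 8 reads in ‘Lapins’ leaf and 10 in ‘Rainier’ leaf. A hydroxyproline-rich glycoprotein (Pav_sc0000886.1_g250.1.mk), of a family of structural wall proteins, had 10 and 6 in the same order. The list summed to 46 reads in ‘Lapins’ leaf and 31 in ‘Rainier’ leaf (ratio 1.49, 0.923 to 2.43), and its median was 0.74 over 3 members.

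The list of aromatic, flavonoid and cytochrome P450 metabolism had 20 members, of which 10 had reads and 3 met the minimum. These 3 were called, 2 CYP82D47-like genes higher and chorismate mutase 2 lower, beside 21.1% called over all genes that met the minimum. With adjusted p only chorismate mutase 2 was called, and 3 genes are too few to read a share from. The list as a whole had 52 reads in ‘Lapins’ leaf and 54 in ‘Rainier’ leaf, a ratio of 0.965 (0.646 to 1.44). Its median of 2.23 over those 3 members was 0.33 when members with at least 5 summed reads were taken. The summed share and the median thus gave different pictures of this list, since the gene called lower had the most reads.

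The other hormone genes had few reads. Of 16 members 8 had reads and none met the minimum, and the list summed to 19 reads in each leaf. 1-aminocyclopropane-1-carboxylate oxidase homolog 4-like (Pav_sc0000893.1_g200.1.mk), of the enzyme family that includes the ethylene-forming oxidase, had 9 reads in ‘Lapins’ leaf and 2 in ‘Rainier’ leaf. Its ratio of 4.51 (0.933 to 42.9) could not be called because neither leaf reached 10 reads. Of 8 light and clock genes 5 had reads and 1 met the minimum. This was adagio 3 (Pav_sc0000893.1_g420.1.mk), whose Arabidopsis counterpart FKF1 is a blue light receptor of photoperiodic flowering, with 12 reads in ‘Lapins’ leaf and 11 in ‘Rainier’ leaf.

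No member of the lists for transport, membrane trafficking or translation was called, beside 21.1% over all genes that met the minimum. With 4, 2 and 1 members that met it, these counts alone are no result about the lists. Of 17 transport and mineral nutrition genes 10 had reads and 4 met the minimum, with sums of 73 reads in ‘Lapins’ leaf and 86 in ‘Rainier’ leaf and a median of -0.25 over 6 members. Among them a member of the NRT1/PTR family of nitrate and peptide carriers (Pav_sc0000893.1_g1130.1.mk) had 13 reads in ‘Lapins’ leaf and 7 in ‘Rainier’ leaf. DETOXIFICATION 33 (Pav_sc0000890.1_g1470.1.mk), a multidrug and toxin efflux carrier, lay the other way with 7 in ‘Lapins’ leaf and 14 in ‘Rainier’ leaf, a ratio of 0.501 (0.171 to 1.33). These members thus lay on both sides of 1, within counting error. Plant cadmium resistance 2-like (Pav_sc0000893.1_g090.1.mk) had 18 reads in ‘Lapins’ leaf and 16 in ‘Rainier’ leaf, and a THI74-like mitochondrial carrier (Pav_sc0000890.1_g100.1.mk) had 17 and 24.

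Among 19 genes of membrane trafficking and the cytoskeleton 11 had reads and 2 met the minimum, with sums of 51 reads in ‘Lapins’ leaf and 57 in ‘Rainier’ leaf and a median of 0.36 over 5 members. Transmembrane 9 superfamily member 8 (Pav_sc0000890.1_g360.1.mk), of a family found in the Golgi and endosomes, had 15 reads in each leaf. VAC14 homolog (Pav_sc0000893.1_g350.1.mk), a scaffold for phosphoinositide synthesis on the vacuole, had 8 reads in ‘Lapins’ leaf and 11 in ‘Rainier’ leaf. The clathrin adaptor subunit beta-adaptin B (Pav_sc0000886.1_g360.1.mk) had 9 and 7, and the microtubule bundling protein MAP65-6-like (Pav_sc0000893.1_g880.1.mk) 7 and 4. None of these differed beyond counting error.

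Of 21 ubiquitin and protein turnover genes 15 had reads and 3 met the minimum. None of the 3 was called, beside 21.1% over all genes that met it. With 3 genes this count alone is no result about the list. Of the 7 members in the median 6 had more reads in ‘Lapins’ leaf and 1 fewer, and the median was 0.62. The sums were 103 reads in ‘Lapins’ leaf and 81 in ‘Rainier’ leaf, a ratio of 1.27 whose interval includes 1 (0.943 to 1.73). Puromycin-sensitive aminopeptidase (Pav_sc0000886.1_g260.1.mk), which trims peptides, had the most reads, 40 in ‘Lapins’ leaf and 26 in ‘Rainier’ leaf (ratio 1.54, 0.918 to 2.63). The E3 ubiquitin ligase MARCH (Pav_sc0000877.1_g760.1.mk) had 11 in ‘Lapins’ leaf and 4 in ‘Rainier’ leaf (2.76, 0.816 to 11.9). The BTB/POZ protein At5g41330 (Pav_sc0000886.1_g240.1.mk) had 15 and 11, and the SUMO ligase PIAL2 (Pav_sc0000886.1_g800.1.mk) 8 and 4, in the same order.

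Translation and protein folding had 12 members, 6 of them with reads, and a single gene that met the minimum, a eukaryotic translation initiation factor (Pav_sc0000890.1_g250.1.mk) with 9 reads in ‘Lapins’ leaf and 13 in ‘Rainier’ leaf. Pentatricopeptide repeat genes, which process RNA in organelles, were almost unread. Of 13 members 5 had reads, 4 in all in ‘Lapins’ leaf and 6 in ‘Rainier’ leaf, and a difference was not detectable at this depth.

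**Figure D3:**
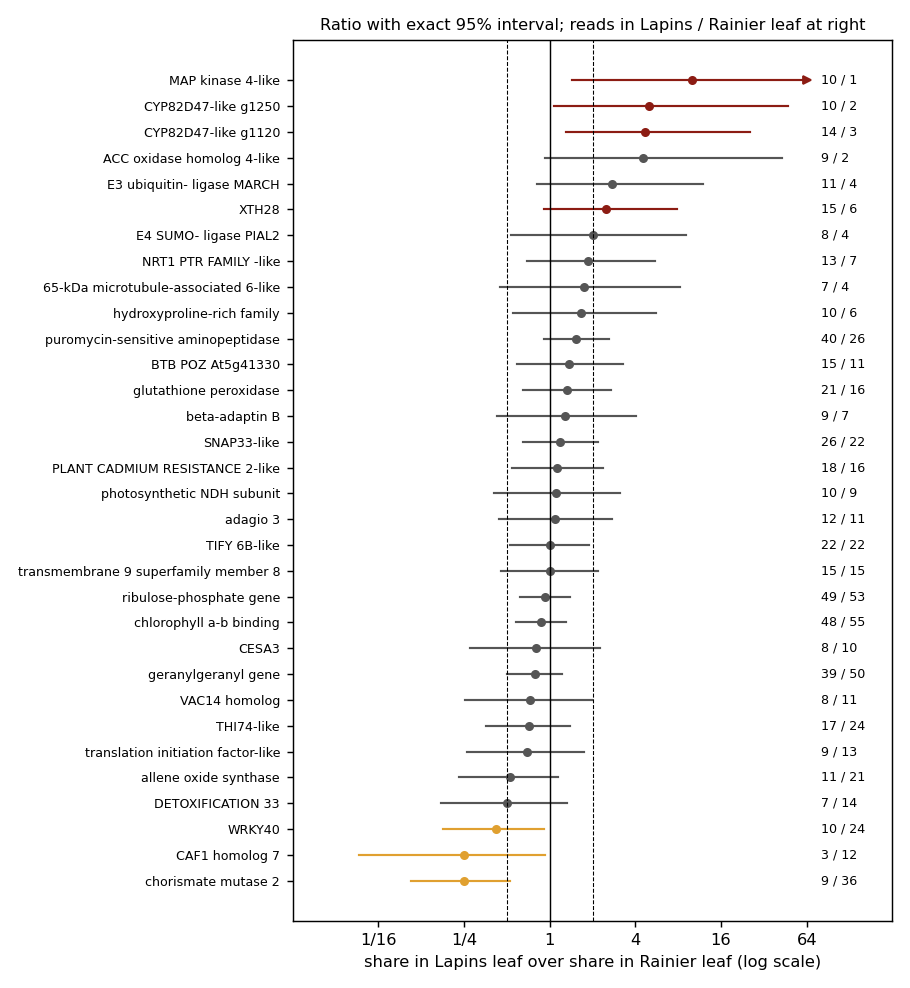
Ratio of shares, ‘Lapins’ leaf over ‘Rainier’ leaf (x axis, log scale), of the described genes named here, with exact 95% intervals and the reads in ‘Lapins’ and ‘Rainier’ leaf at the right. The genes called higher (dark red) and lower (yellow) lie past the dashed lines of 2-fold difference. The intervals of all genes in grey include 1, and the arrow marks an interval that runs to 435.

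**Figure D4:**
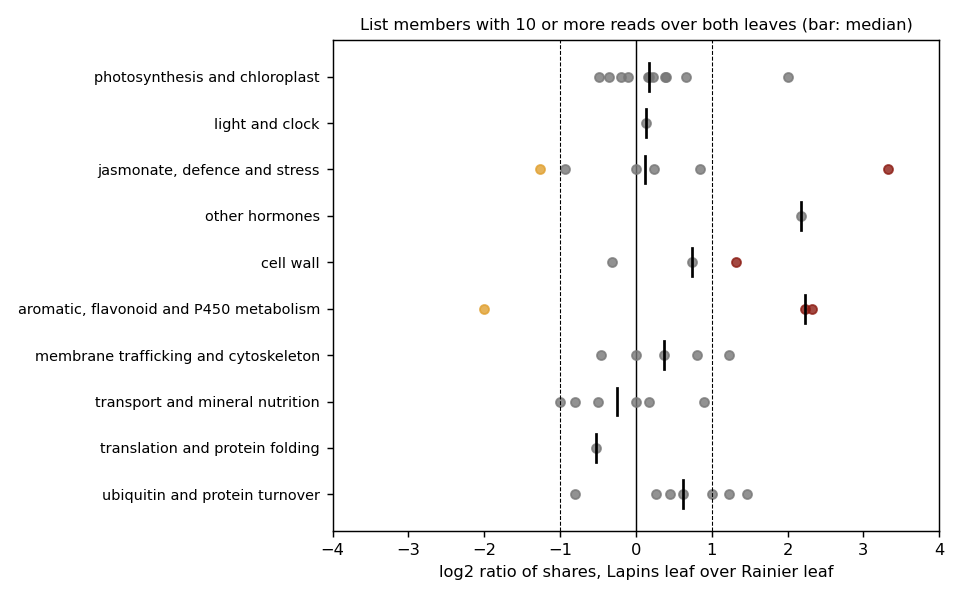
Log2 ratio of shares, ‘Lapins’ leaf over ‘Rainier’ leaf (x axis), of each list member with at least 10 reads summed over both leaves (points, coloured where called), with the median of each list as a bar. Photosynthesis and chloroplast genes have a median of 0.17 over 11 members, and 3 of the 10 lists drawn rest on a single member.

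The genes called in leaf were then looked up in fruit of the same cultivars, which shares neither library nor tissue with them. Of the 222 genes called higher in ‘Lapins’ leaf, 94 had at least 10 reads in a fruit, and 49 of these (52.1%) had a higher share in ‘Lapins’ fruit than in ‘Rainier’ fruit. Over all 1039 genes with 10 reads in a leaf and in a fruit, 57.1% did. Of the 193 genes called lower, 98 had such fruit reads and 42 (42.9%) had a lower share in ‘Lapins’ fruit, the same as the 42.9% over all. Taking the direction of each gene's own leaf ratio, 45.6% of the 1039 genes had the same direction in fruit, and 45.2% of the 847 among them that were not called in leaf. Beside all genes in the same direction, the share was thus near that of all for genes called higher (52.1% against 57.1%) and equal for genes called lower (42.9%). The difference for genes called higher was not tested.

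Leaf calls recurred in fruit about as often as all genes with reads in both tissues were called there. In fruit 8.77% of the genes with 10 reads were called higher in ‘Lapins’ and 7.09% lower, by the same criteria. Among the 94 genes called higher in leaf, 8 were called higher in fruit too (8.51%) and 6 lower (6.38%). Among the 1039 genes the shares called in fruit were 7.89% higher and 3.66% lower. Among the 98 genes called lower in leaf, 3 were called lower in fruit too (3.06%) and 4 higher (4.08%). None of the genes called the same way in both tissues had a description. The median log2 ratio in fruit was 0.05 for the genes called higher in leaf, whose median in leaf was 1.59, and 0.04 for those called lower, whose median in leaf was -1.80.

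**Figure D5:**
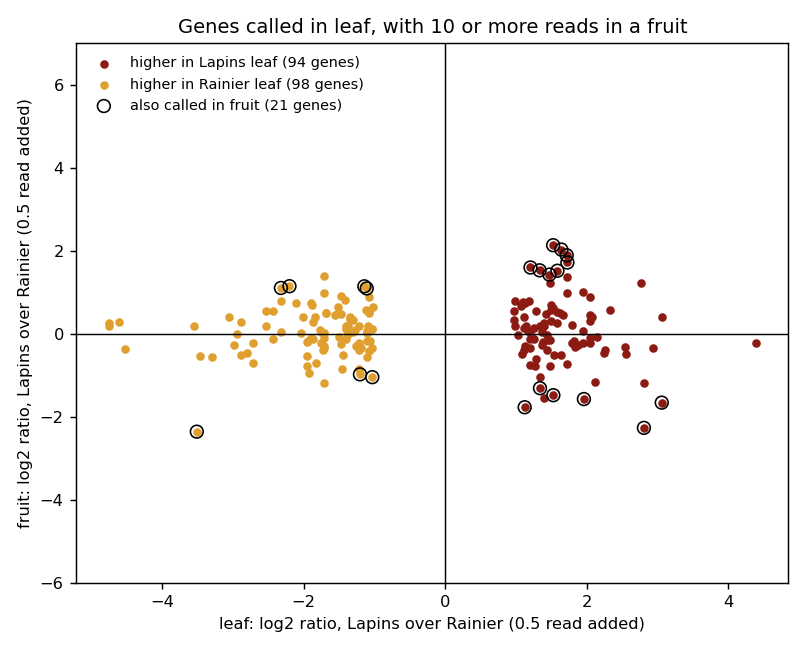
Log2 ratio of ‘Lapins’ over ‘Rainier’ in leaf (x axis) and in fruit (y axis), with 0.5 read added, of the 94 genes called higher and the 98 called lower in ‘Lapins’ leaf that had at least 10 reads in a fruit. The points spread on both sides of 0 in fruit whichever way they were called in leaf, and the 21 genes also called in fruit (ringed) include 10 with the opposite sign.

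Called genes were also described by properties that the criteria did not use. Of the genes called higher 9.91% (22 genes) and of those called lower 9.33% (18 genes) had no read in any fruit. Over all genes that met the minimum it was 6.61%, and the difference, on these few genes, was not tested. The median coding length was 1490 bases for genes called higher and 1083 bases for genes called lower, beside 1265 bases over all that met the minimum. Coding length also moved with the direction of the calls when the 1966 genes were divided by it into 3 groups of like size. In the group of longest genes (1635 to 14364 bases) 94 were called higher and 52 lower, 14.4% and 7.94%. In the group of shortest genes (186 to 942 bases) 61 were called higher and 77 lower, 9.3% and 11.7%.

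The summed shares moved the same way. Without the 10 most read genes, the ratio of summed shares of ‘Lapins’ over ‘Rainier’ leaf was 1.11 in the longest genes (1.08 to 1.14), 0.986 in the middle group (0.964 to 1.01) and 0.904 in the shortest (0.883 to 0.925). The part of coding length in the calls of single genes was not tested. When the library sums were instead taken within each of the 3 groups, an alternative chosen after seeing the data, 225 genes were called higher and 199 lower, of which 382 were among the 415 called before.

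Neighbouring genes on a scaffold were also compared. Among 182 pairs of neighbours that both met the minimum, 59 had at least 1 called gene and 7 had both, where 21.1% of single genes were called. Of these 7 pairs, 1 was higher in both genes, 2 were lower in both and 4 went in opposite directions.

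When all 6 libraries were fitted together, with tissue and cultivar in the model, the spread left over between libraries entered the test. Over 1864 genes edgeR's quasi-likelihood test called none between ‘Lapins’ and ‘Rainier’ at an adjusted p under 0.05, and at an unadjusted p under 0.05 it gave 16 genes higher in ‘Lapins’ and 11 lower. DESeq2 called 1 gene higher and none lower after adjustment, and 10 and 8 without it. Of the genes called in leaf 240 were among those edgeR tested, and 19 of them had an unadjusted p under 0.05. This fit takes the cultivar difference as equal in leaf and fruit, so a difference present in leaf alone adds to the spread. The 7 described genes were not all in it, and the 4 that were, the second of the cytochrome P450 genes (Pav_sc0000890.1_g1250.1.mk), xyloglucan endotransglucosylase hydrolase 28, chorismate mutase 2 and WRKY40, had an adjusted edgeR p of 0.998 each.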

How the data were processed

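Reads of each library were trimmed and mapped by the authors to the 43673 coding sequences with CLC Genome Workbench 11.0.1. They set similarity to 0.9, length fraction to 0.6, the unspecific match limit to 10, and the cost of a mismatch, insertion or deletion to 3. The deposited counts of unique and of total reads per gene are whole numbers, not normalised. The deposited RPKM values served only to recover coding length, which matched the annotation table in 305 of 305 genes within 0.5 bases. Deposited TPM values were not used.

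Unique reads were compared as shares of the library sum by the Z-test of Kal et al. on 2 proportions, with exact (Clopper-Pearson) 95% intervals for ratios. The study's criteria do not say whether the read minimum holds for 1 or for both libraries of a pair. Here they were read as 10 reads or more in at least 1 of the leaves, a 2-fold ratio or more, and an unadjusted p not above 0.05. A count of 0 was taken to allow 3 reads. Reads are not independent molecules, though the intervals and tests treat them as such. The intervals thus cover counting error at most and may be too narrow for it. Python 3.11.15 (numpy 2.4.6, scipy 1.17.1, pandas 2.3.3) and R 4.3.3 with edgeR 4.0.16 and DESeq2 1.42.0 were used, each test first tried on simulated counts. With 1 library for each cultivar and tissue, the edgeR and DESeq2 p-values measure the spread that tissue and cultivar leave over. That spread includes cultivar differences that are unlike in leaf and fruit, and part of it may be technical. The leaf and fruit ratios were compared by a Poisson likelihood ratio test over 3071 genes.

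Descriptions came from the 581 rows of the study's annotation table used here, and 0 identifiers matched the reference gene table. Named were all described called genes, up to 4 members of each list with the most reads and at least 10, and 2 undescribed called genes per direction with the smallest p. Described genes at p of at most 0.05 with a ratio under 2 were also to be named, and there were none. The comparison, its lists and its tests were chosen with earlier results of these data known. Alternatives covered the read minimum, the ratio, Fisher's exact test, adjusted p, library sizes, total reads and fits over all 6 libraries.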

Additional observations from a re-analysis of the deposited data

Results flagged for a closer look

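The ratio of ‘Lapins’ over ‘Rainier’ differed between leaf and fruit in 77 of 3071 genes at an adjusted p under 0.05 (likelihood ratio test, counting error only), and 2 of them were among the named genes. Chorismate mutase 2 (Pav_sc0000890.1_g420.1.mk) had a ratio of 0.25 (0.106 to 0.53) in leaf and 0.888 (0.62 to 1.27) in fruit, with an adjusted p of 0.0442 for the difference. Allene oxide synthase (Pav_sc0000890.1_g1300.1.mk) had a ratio of 0.525 (0.229 to 1.14) in leaf and 2.96 (1.26 to 7.74) in fruit, with an adjusted p of 0.0487. No group held 4 or more libraries, so none could be examined for a library that stands apart.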

How the results depend on the processing

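The counts of 222 genes called higher and 193 lower in ‘Lapins’ leaf stayed within 1.5 times under Fisher's exact test (218 and 166), TMM library sizes (197 and 237, each log2 ratio moved by -0.07), median-of-ratios size factors (222 and 209), sums without the 10 most read genes (210 and 225), total reads (232 and 201) and sums within 3 groups of coding length (225 and 199, chosen after seeing the data). TMM sizes and sums without the 10 most read genes turned the balance towards genes called lower. The counts moved to 57 and 63 with 10 reads required in both leaves, 494 and 401 with no minimum, 134 and 107 at a ratio of at least 3, 20 and 31 with adjusted p, 0 and 0 with edgeR over all 6 libraries (16 and 11 unadjusted) and 1 and 0 with DESeq2. With members of at least 5 summed reads the median log2 ratio was 1.47 for light and clock (0.13 as given first, on 1 member), 0.003 for other hormones (2.17 on 1 member) and 0.33 for aromatic, flavonoid and cytochrome P450 metabolism (2.23). The same setting turned the sign of the median for transport and mineral nutrition, from -0.246 to 0.003. For membrane trafficking and the cytoskeleton the median went from 0.365 to 0.003. TMM sizes turned the sign of no list's median. With adjusted p 6 of the 7 described calls were lost. Shares keeping their direction in fruit were 50.6% of genes called higher and 48.3% of those called lower with TMM sizes, and 54.3% and 46% with 20 fruit reads. The shares over all genes under these settings are not given here, so nothing is read from these values about the called genes. No paired analysis was possible because the labels give no replicate numbers and the leaf comparison has 1 library a side, so neither could be left out. The fits over all 6 libraries compare the cultivars within tissue, with a single difference for leaf and fruit together. Their counts are thus not of the leaf difference alone, and 240 of the genes called in leaf were among those edgeR tested. Depth limits every value: at 10 reads a gene was called only against 2 or fewer.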

Other observations

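Several described genes below the minimum of 10 reads, chosen after their values were seen, had most of their leaf reads in 1 of the leaves. Carotenoid cleavage dioxygenase 1, which cuts carotenoids into volatile ketones, had 8 reads in ‘Lapins’ leaf and 1 in ‘Rainier’ leaf. The response regulator-like gene APRR1, whose Arabidopsis counterpart TOC1 is part of the circadian clock, had 7 reads in ‘Lapins’ leaf and 1 in ‘Rainier’ leaf, against 3 and 4 in fruit of the same cultivars. A chloroplast nucleoid-associated gene had 8 and 2 reads and a pectinesterase, which demethylates pectin, 7 and 2, in ‘Lapins’ and ‘Rainier’ leaf. The MACPF domain gene At1g14780 had 6 and 0 and the disease resistance gene At4g33300 5 and 0 in the same order. The other way, the BTB/POZ gene NPY1, of auxin-dependent organ formation in Arabidopsis, had 0 reads in ‘Lapins’ leaf and 5 in ‘Rainier’ leaf. WRKY29, formin 20 and a vacuolar iron transporter 1-like gene had 0 and 4 in the same order, and ubiquitin-conjugating enzyme E2 variant 1A 2 and 7. None of these genes met the minimum for a call, and others with like counts are not named. With no minimum, 494 genes were called higher in ‘Lapins’ leaf and 401 lower.

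Flavonoid 3'-monooxygenase, of the anthocyanin pathway, had 5 reads in ‘Lapins’ leaf and 4 in ‘Rainier’ leaf, against 37 reads in ‘Lapins’ fruit and 4 in ‘Rainier’ fruit, and its ratio in leaf was not detectably different from 1 at this depth.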
